A study of Mus musculus with 17 samples.

Results

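The replication-dependent histone genes were followed in sorted mouse monocytes and in their bone marrow (BM) precursors. Members were all genes of the array annotation whose symbols belong to the clustered histone families, that is H1f1 to H1f5 and the H2ac, H2bc, H3c and H4c genes, or to their older Hist names. Each was measured by the brightest probe set that names it alone. This gave 25 members of 22180 genes measured in this way, namely 4 H1, 6 H2A, 8 H2B and 7 H4 genes. A further 37 of the 62 symbols of these families, all 12 H3c genes among them, occur only on probe sets shared by several genes and are described apart. Of the members, 20 lie on chromosome 13 and 5 on chromosome 3.

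Histones package DNA into nucleosomes, whose core holds H2A, H2B, H3 and H4, while H1 binds the linker DNA between them. The replication-dependent genes are transcribed mainly in S phase, when new chromatin needs a large supply of histones, and their mRNAs end in a stem-loop instead of a poly(A) tail. In the monocyte lineage, BM precursors such as the common monocyte progenitor (cMoP) divide, whereas circulating monocytes are largely out of cycle.

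RNA of sorted cells was hybridized to 17 Affymetrix mouse gene arrays, which the authors had converted to log2 levels by the RMA method. The injected groups came from C57BL/6 mice that carry the CD11c-DTR transgene, in which the CD11c promoter drives the receptor for diphtheria toxin (DT), so that DT deletes CD11c+ cells. DT-Ly6C+ monocytes (4 arrays) and PBS-Ly6C+ monocytes (4 arrays) were sorted from the spleen, and DT or PBS had been given 48 h earlier. Ly6Cneg monocytes (3 arrays) are labelled as spleen cells of PBS-injected mice, whereas the study's legend gives C57BL/6 mice. G-CSF-Ly6C+ monocytes (3 arrays) are labelled as induced by Flt3L and G-CSF, whereas the methods describe G-CSF injection of wild-type mice, and no array of vehicle-treated mice was analysed here. The cMoPs (3 arrays) were sorted from the BM of untreated C57BL/6 mice without the collagenase used for the spleen. All mice were 8 to 12 weeks old, and samples came from individual or pooled animals, so that p-values measure the spread between these arrays.

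By the names of the arrays there were 2 series, G32 (8 arrays) and JS (9 arrays). The JS series holds 3 DT, 3 PBS and 3 G-CSF arrays, and G32 holds the cMoP and Ly6Cneg arrays with 1 DT and 1 PBS array. Groups were therefore compared within a series. The PBS array of G32 stood apart from its group. Over all genes it correlated at 0.974 to 0.976 with the DT arrays of JS and at 0.919 to 0.923 with the PBS arrays of JS. The 3 PBS arrays of JS went against their label in part. The mean log2 level of 11 stem and progenitor markers lay at 9.75 to 9.81 in them, at 9.62 to 9.76 in cMoPs and at 5.96 to 6.12 in the DT arrays of JS, while that of 9 Ly6C+ monocyte markers lay at 8.60 to 8.78 against 10.74 to 10.76 in the DT arrays. Markers of neutrophils (13 genes, 11.09 to 11.12 against 9.55 to 9.77) and T cells (10 genes, 6.66 to 6.86 against 5.12 to 5.27) were also higher in the PBS than in the DT arrays of JS. On the PBS array of G32 the stem and progenitor markers averaged 6.12 and the Ly6C+ monocyte markers 10.55. These levels moved with the histone genes in each comparison with the PBS arrays of JS, and their part in the histone differences was not tested. The Ly6Cneg arrays varied in NK cell markers (8 genes, 5.91 to 7.78) and B cell markers (8 genes, 6.03 to 7.37). All 3 Ly6Cneg arrays lay above the cMoP arrays in both lists (4.83 to 4.95 and 5.08 to 5.18). Dendritic cell markers (9 genes) lay at 8.85 to 9.54 in Ly6Cneg monocytes and at 5.68 to 5.83 in cMoPs. The DT array of G32 was also below the Ly6Cneg arrays in each of these lists. The part of these markers in the histone comparisons with Ly6Cneg monocytes was not tested.

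Promoters are shown because some members lie head to head, and because the classes differ in the motifs they carry. A window from 250 bases before to 50 bases after the annotated start was taken from RefSeq for mouse build GRCm38.p6 and was found for 23 of 25 members. Both strands were searched for the octamer ATTTGCAT of H2B genes, the TATA box TATAAA, the CCAAT box CCAAT, the AC box AAACACA of H1 genes and the H4 element GGTCC. No motif contains another. The octamer was present in 5 of 7 H2B and 3 of 6 H2A windows, in 0 of 4 H1 and 0 of 6 H4 windows, and in 1.97% of the 27025 promoters of the table. All 3 H2A octamers read on the strand opposite to the H2A gene, that of a facing H2B gene. Those of H2ac12 and H2ac1 are the same bases as the octamers counted for H2bc12 and H2bc1. The CCAAT box was present in all 4 H1, all 6 H2A and all 7 H2B windows but in 1 of 6 H4 windows, beside 41.1% of all promoters. The TATA box was found in 16 of 23 members (69.6%, all promoters 15.7%), and the AC box in 3 of 4 H1 windows (all promoters 8.22%). GGTCC was present in 5 of 6 H4 windows, beside 48.7% of all promoters. A match is a run of letters only. The 5 windows below are those of an H1 gene, of an H4 gene, of an H2B gene with the octamer and of 2 genes that face a histone gene with another pattern. Sequences run 5' to 3' on the strand of the gene, and capitals mark these motifs or their reverse complements.
H1f5 (chr13:21780576-21780875, minus strand): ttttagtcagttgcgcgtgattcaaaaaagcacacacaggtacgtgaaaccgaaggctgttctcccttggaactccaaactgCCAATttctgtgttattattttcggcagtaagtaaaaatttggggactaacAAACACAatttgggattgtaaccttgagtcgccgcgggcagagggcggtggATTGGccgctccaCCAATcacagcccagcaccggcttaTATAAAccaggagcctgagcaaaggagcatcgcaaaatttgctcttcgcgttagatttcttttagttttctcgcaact
H2ac20 (chr3:96220831-96221130, minus strand): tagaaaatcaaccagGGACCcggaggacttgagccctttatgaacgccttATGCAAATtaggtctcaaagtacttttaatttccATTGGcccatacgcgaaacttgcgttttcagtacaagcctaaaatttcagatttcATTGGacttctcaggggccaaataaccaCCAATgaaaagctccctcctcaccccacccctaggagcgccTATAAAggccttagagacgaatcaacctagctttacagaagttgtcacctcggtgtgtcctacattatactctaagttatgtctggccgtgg
H2bc12 (chr13:22035571-22035870, plus strand): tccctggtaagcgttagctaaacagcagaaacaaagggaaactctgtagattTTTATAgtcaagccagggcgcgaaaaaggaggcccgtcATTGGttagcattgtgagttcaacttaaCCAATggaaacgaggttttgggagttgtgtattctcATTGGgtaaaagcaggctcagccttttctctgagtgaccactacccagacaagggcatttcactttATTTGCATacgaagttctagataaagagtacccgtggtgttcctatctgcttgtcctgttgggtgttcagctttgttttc
H2bc18 (chr3:96269450-96269749, plus strand): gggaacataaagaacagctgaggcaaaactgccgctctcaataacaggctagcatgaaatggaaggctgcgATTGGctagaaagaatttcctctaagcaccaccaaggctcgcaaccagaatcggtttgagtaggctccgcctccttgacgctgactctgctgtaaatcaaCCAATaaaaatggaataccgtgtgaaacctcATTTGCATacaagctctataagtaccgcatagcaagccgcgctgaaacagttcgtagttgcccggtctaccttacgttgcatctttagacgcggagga
H4c12 (chr13:21750504-21750803, minus strand): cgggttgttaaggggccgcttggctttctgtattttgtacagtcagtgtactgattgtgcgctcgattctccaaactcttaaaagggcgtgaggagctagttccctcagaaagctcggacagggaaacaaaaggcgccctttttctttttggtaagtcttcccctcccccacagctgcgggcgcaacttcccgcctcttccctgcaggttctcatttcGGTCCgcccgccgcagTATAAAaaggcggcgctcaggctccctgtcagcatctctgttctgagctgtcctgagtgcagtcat

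Histone genes were lower in DT-Ly6C+ than in PBS-Ly6C+ monocytes of the JS arrays. By limma, with p adjusted over all genes, 13 of 25 members were lower and 1 was higher, whereas 10.0% of all genes were lower and 9.46% higher. The median log2 difference of the members was -0.66, beside 0.02 over all genes, and 23 of 25 differences were below 0. All 4 H1 genes were lower, as were 4 of 6 H2A, 3 of 8 H2B and 2 of 7 H4 genes, and the single higher member was the H2B gene H2bc21. Of the 11 members whose mean level was above the median of all genes, 10 were lower, and of the 14 below it 3 were lower and 1 higher. The arrays of the 2 groups did not overlap for any of the 14 called members. Those of the called marker genes did not overlap either, so that this adds little to the calls.

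**Figure D1:**
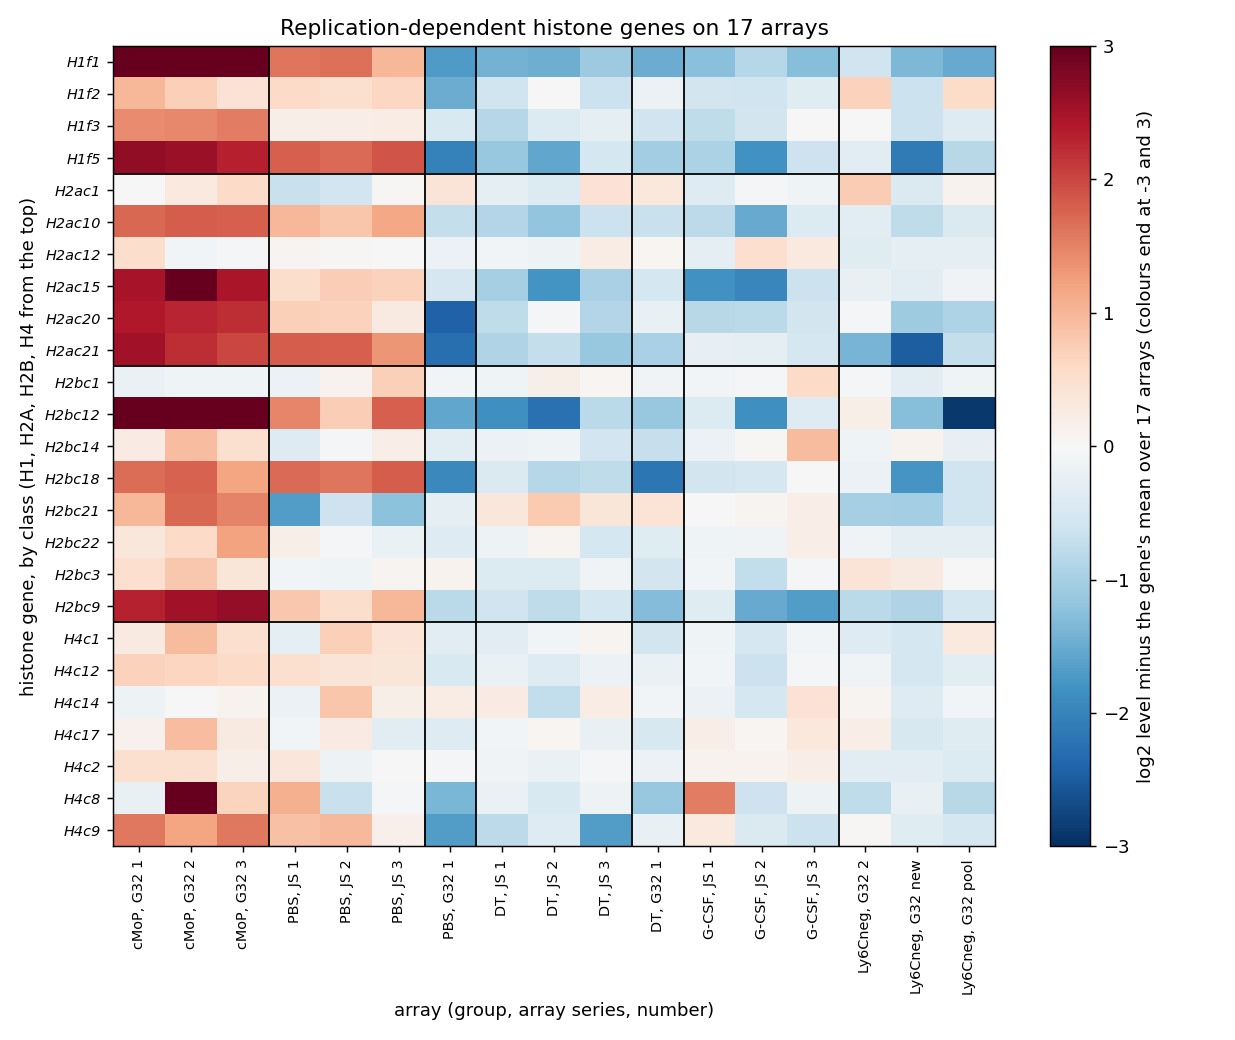
Log2 level of each of 25 histone genes (rows, by class) on each of 17 arrays (columns, by group and array series), minus the mean of the gene over all arrays. Red is above and blue below that mean. The cMoP arrays are red for most genes of each class. The 3 PBS arrays of JS are red for most H1, H2A and H4 genes and mixed for H2B genes. The PBS array of G32 is not red for most genes, and H2bc21 is blue on the PBS arrays of JS.

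H1f5 encodes a linker histone. Its log2 level was 11.71, 11.61 and 11.80 on the PBS arrays of JS, 8.78, 8.35 and 9.38 on the DT arrays and 8.97, 8.10 and 9.30 on the G-CSF arrays. In G32 it was 12.58, 12.50 and 12.24 in cMoPs, 9.60, 7.80 and 9.08 in Ly6Cneg monocytes, 8.87 on the DT array and 7.88 on the PBS array. The cMoPs and the PBS arrays of JS were thus high, and every other array was low, the PBS array of G32 included. H1f5 was lower in DT than in PBS by 7.31-fold (log2 difference -2.87, SE 0.38, adjusted p = 3.38e-05). H1f1, another linker histone, was at 6.68, 6.73 and 6.07 on the PBS arrays of JS against 3.67, 3.61 and 3.99 on the DT arrays. Its difference was -2.74 (SE 0.24, adjusted p = 3.47e-07). In cMoPs H1f1 reached 8.61, 8.20 and 8.20, above all other arrays. H1f2 moved less, from 9.13, 9.03 and 9.17 on the PBS arrays to 7.95, 8.56 and 7.91 on the DT arrays (log2 difference -0.97, SE 0.28, adjusted p = 0.0201). The call of H1f2 was lost without DT JS_1, DT JS_3, PBS JS_1 or PBS JS_3 (adjusted p 0.0565 to 0.0856). H1f3, named here after its values were seen, differed by -0.73 (SE 0.20, adjusted p = 0.0154).

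The H2A genes that were called are H2ac10, H2ac15, H2ac20 and H2ac21, which encode core H2A proteins. H2ac21 was at 9.71, 9.69 and 9.22 on the PBS arrays of JS and at 6.99, 7.18 and 6.77 on the DT arrays, with no overlap (log2 difference -2.56, SE 0.31, adjusted p = 1.39e-05). A second probe set of H2ac21 gave a smaller difference of -0.78 (SE 0.22, adjusted p = 0.0176). H2ac10 was at 10.04, 9.88 and 10.21 on the PBS arrays and at 8.16, 7.87 and 8.41 on the DT arrays (log2 difference -1.90, SE 0.22, adjusted p = 1.04e-05). H2ac15 was at 8.99, 9.20 and 9.15 on the PBS arrays and at 7.47, 6.67 and 7.48 on the DT arrays (log2 difference -1.91, SE 0.29, adjusted p = 0.000138). These PBS arrays were close to each other, and the DT arrays were more spread. H2ac1, the testis form of H2A, and H2ac12 were not called (log2 differences 0.33 and -0.05).

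Among H2B genes, H2bc12 had the largest fall of all members. It was at 7.93, 7.21 and 8.25 on the PBS arrays of JS and at 4.63, 4.23 and 5.65 on the DT arrays (log2 difference -2.96, SE 0.59, adjusted p = 0.0016). H2bc18, whose octamer-bearing promoter is printed above, was at 8.48, 8.38 and 8.58 on the PBS arrays and at 6.35, 5.92 and 6.02 on the DT arrays (log2 difference -2.38, SE 0.30, adjusted p = 1.87e-05). On the single G32 arrays H2bc18 was at 4.60 in DT and 4.84 in PBS, below every array of JS. H2bc9, named after its values were seen, differed by -1.40 (SE 0.26, adjusted p = 0.000801). H2bc3, the brightest H2B member on average, was at 7.55, 7.51 and 7.72 in PBS and at 7.23, 7.23 and 7.54 in DT, so that the groups overlapped (log2 difference -0.26, SE 0.19, adjusted p = 0.414). The 95% interval of that difference ran from -0.66 to 0.14. H2bc14 gave -0.22 (adjusted p = 0.653), and the testis gene H2bc1 and H2bc22 were not called either.

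Of the H4 genes, 2 were called. H4c12, the brightest member of its class on average, was at 11.41, 11.32 and 11.30 on the PBS arrays of JS and at 10.72, 10.55 and 10.76 on the DT arrays. The groups did not overlap, and the step was 1.58-fold (log2 difference -0.66, SE 0.16, adjusted p = 0.0072). H4c9 was at 8.16, 8.26 and 7.44 on the PBS arrays and at 6.48, 6.89 and 5.59 on the DT arrays (log2 difference -1.64, SE 0.31, adjusted p = 0.00112). H4c1 did not pass (log2 difference -0.39, SE 0.26, adjusted p = 0.375). The other 4 H4 genes lay below the median of all mean levels and were not called. H4c8, among them and named after its values were seen, was erratic, with levels of 3.58, 7.39 and 4.48 on the 3 cMoP arrays.

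**Figure D2:**
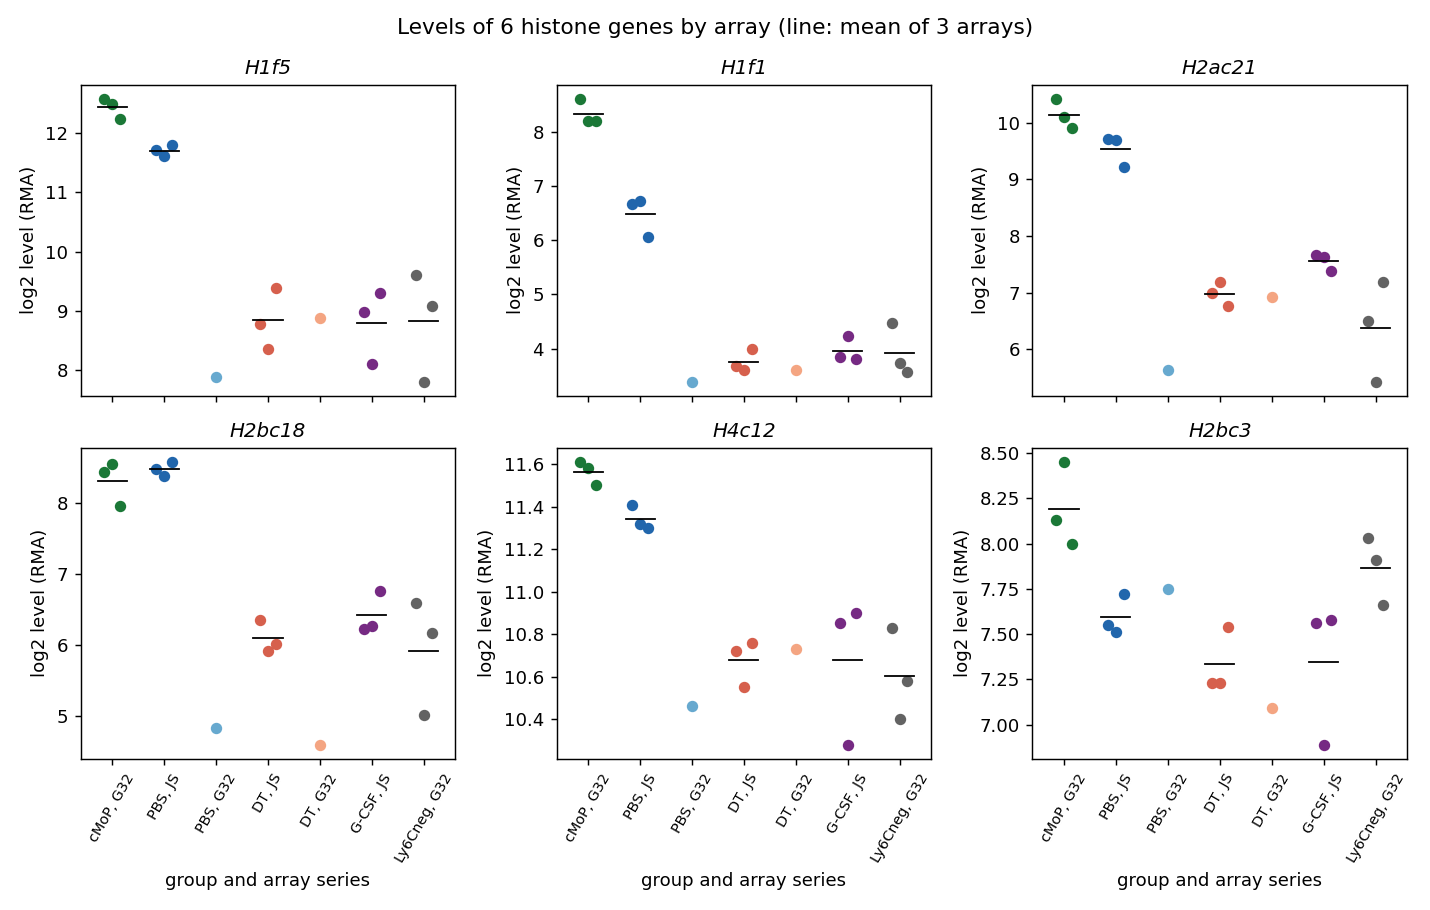
Log2 level of H1f5, H1f1, H2ac21, H2bc18, H4c12 and H2bc3 on every array (points), by group and array series, with a line at the mean of 3 arrays. The vertical axes differ between the panels. For the first 5 genes the 3 PBS arrays of JS lie above all DT and G-CSF arrays, and the PBS array of G32 lies below the DT arrays of JS, while H2bc3 shows no such gap.

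G-CSF-Ly6C+ monocytes gave the same counts against the same PBS arrays. Of 25 members 13 were lower and 1 was higher, beside 9.80% and 9.13% of all genes, with a median log2 difference of -0.65. All 13 members lower in DT were also lower in G-CSF, but the 2 comparisons share their 3 PBS arrays. H1f5 differed by -2.92 in G-CSF and -2.87 in DT, H1f1 by -2.53 and -2.74, H2ac15 by -2.13 and -1.91, and H2bc18 by -2.06 and -2.38. H4c9 barely passed (log2 difference -0.94, SE 0.31, adjusted p = 0.0459), and its G-CSF arrays, at 7.56, 6.84 and 6.63, overlapped those of PBS.

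Set directly against each other, G-CSF and DT arrays differed in 0 of 25 members by limma, where 0.0361% of all genes were higher and 0.0271% lower. At an unadjusted p under 0.05 there were 3 members, H2bc14, H2bc9 and H4c9, and 7.49% of all genes. The median difference of the members was 0.08, and single differences ran from -0.56 (H2bc9) to 0.75 (H2bc12, SE 0.59). A difference this small is not shown to be absent. For 19 of 25 members the 95% interval lay wholly between -1 and 1 on the log2 scale, and for H1f5 it ran from -0.85 to 0.76. For H2bc12 it ran from -0.51 to 2.01 and for H4c9 from 0.03 to 1.36.

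**Figure D3:**
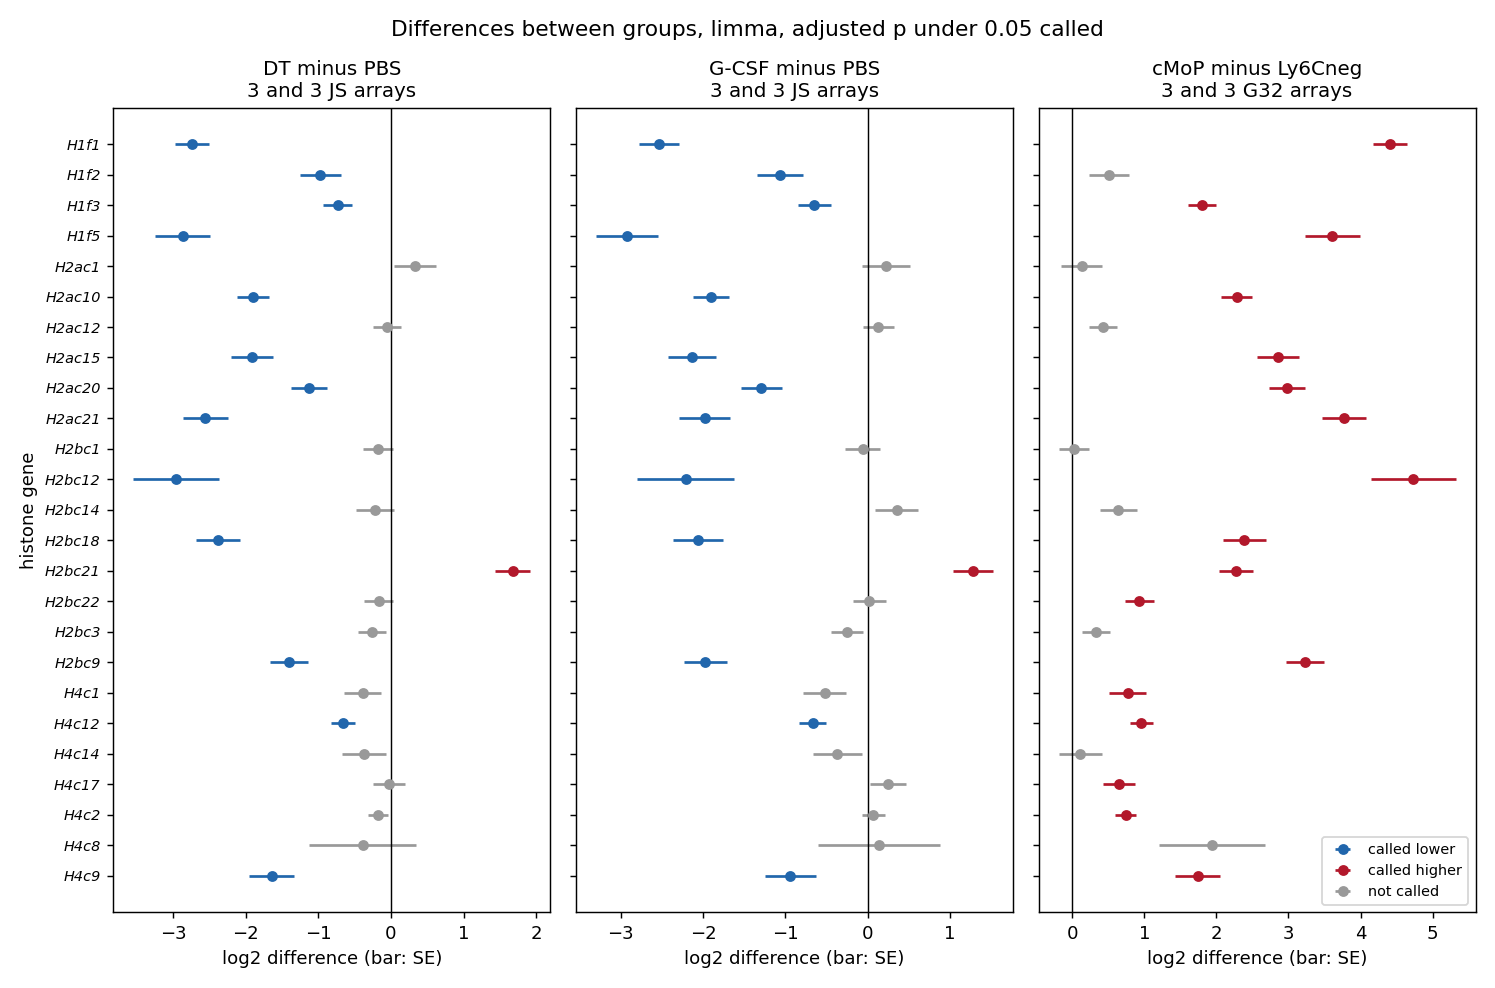
Log2 difference of each histone gene (points, bars are the SE from limma) for DT minus PBS and G-CSF minus PBS on JS arrays and for cMoP minus Ly6Cneg on G32 arrays. Blue genes were called lower and red genes higher at an adjusted p under 0.05. H2bc21 is the only red gene in the first 2 panels, and no gene is blue in the third.

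Within G32, the median histone level was highest on the 3 cMoP arrays. Against Ly6Cneg monocytes in G32, 17 of 25 members were higher and 0 were lower, beside 19.4% and 13.5% of all genes. Their median log2 difference was 1.74 (all genes -0.07), and all 25 differences were above 0. The cMoP and Ly6Cneg arrays did not overlap for the called members other than H4c1 and H4c17. For most called marker genes they did not overlap either. H2bc12 led, at 10.00, 10.04 and 9.54 in cMoPs and 6.63, 5.19 and 3.56 in Ly6Cneg monocytes (log2 difference 4.73, SE 0.59, adjusted p = 9.86e-06). H1f1 followed with 4.41 (SE 0.24, adjusted p = 7.61e-10), then H2ac21 with 3.77 and H1f5 with 3.61. The second probe set of H2ac21 gave 1.15 (SE 0.22, adjusted p = 0.000608). The Ly6Cneg arrays were themselves wide for some genes, H2bc12 having an SD of 1.54. H1f2 (0.51, adjusted p = 0.18) and H2bc3 (0.33, adjusted p = 0.206) did not pass.

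Against the single DT array of G32, cMoPs were higher in 16 members and lower in 0 (all genes 9.04% and 8.07%). H1f1 differed by 4.73 (SE 0.33, adjusted p = 4.89e-08), H2bc12 by 4.55 (SE 0.84, adjusted p = 0.000852) and H2bc18 by 3.72 (SE 0.42, adjusted p = 7.65e-06). With 1 DT array this test takes its spread from the other groups. Against the DT arrays of JS, 0 of 25 members of that DT array were called, beside 0.135% of all genes in each direction, so that the count says little. At an unadjusted p under 0.05 there was 1 member, H2bc18 (and 11.9% of all genes), at 4.60 on that array and 5.92 to 6.35 on those of JS. Ly6Cneg monocytes and the DT array of G32 differed in 1 member, H2bc21, which was lower in Ly6Cneg (log2 difference -1.27, SE 0.34, adjusted p = 0.0286), where 2.07% of all genes were higher and 5.83% lower. That call was lost without Ly6Cneg array G32_2 or G32_new. Ly6Cneg arrays of H1f5 and H2bc12 spanned the levels of the DT array.

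The PBS array of G32 did not carry the histone pattern of the PBS arrays of JS. It was closer to the mean of the DT than of the PBS arrays of JS for 23 of 25 members, and for all 13 members that were lower in DT. Over all genes it also correlated more with those DT arrays, and the share of all genes closer to DT was not counted. For dim members such as H2ac12, at 2.82 against means of 2.99 in DT and 3.04 in PBS of JS, nearness says little. On the single arrays of G32, DT was above PBS for 13 members and below for 12, with a median difference of 0.01. Most members that were lower in DT on JS arrays ran the other way there. DT was above PBS by 2.20 for H2ac20, 1.46 for H4c9, 1.30 for H1f2 and H2ac21 and 0.99 for H1f5. The rise was smaller for H2bc12 (0.41), H4c12 (0.28), H1f1 (0.22) and H2ac10 (0.05). Below PBS were H2bc9 (-0.48), H2bc18 (-0.25), H1f3 (-0.15) and H2ac15 (-0.01). The difference between the 2 series was itself tested and was called for 8 members, all with DT further below PBS in JS (5.36% of all genes, 2.94% in the other direction). It was -3.86 for H1f5 (SE 0.76, adjusted p = 0.00419) and -3.86 for H2ac21 (SE 0.62, adjusted p = 0.000887). This test rests on 1 DT and 1 PBS array in G32. The falls described above thus hold for the JS arrays and were not seen on the single arrays of G32.

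Whether histones in PBS-Ly6C+ arrays of JS stood as high above DT as in cMoPs was asked after the data had been seen. Each group was set against DT of its own series, which is 3 arrays in JS but 1 array in G32. Every excess given here therefore rests on that single DT array. The step was larger in cMoPs for 4 members and smaller for 0, beside 1.56% and 3.33% of all genes. They are H2bc21 (an excess of 2.67 on the log2 scale, SE 0.41, adjusted p = 0.00072), H2bc9 (2.38, SE 0.45, adjusted p = 0.00377), H1f1 (3.99-fold, SE 0.41 on the log2 scale, adjusted p = 0.00706) and H1f3 (1.34, SE 0.35, adjusted p = 0.0344). For H1f5 the excess was 0.70 (SE 0.66, adjusted p = 0.73) and for H4c9 it was 0.06 (SE 0.54, adjusted p = 0.988). The median excess was 0.85 over the members, 0.87 over 32 S-phase genes and 0.05 over the stem and progenitor markers. Over the 34 distinct probe sets shared by several histone genes it was 0.77. Single excesses of these sets ran from -3.06 to 4.28, both in H2B sets.

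H2bc21 went against the other called members. It was at 3.69, 4.74 and 4.13 on the PBS arrays of JS, at 5.71, 6.15 and 5.73 on the DT arrays and at 5.39, 5.46 and 5.56 on the G-CSF arrays. The PBS arrays were the lowest and did not overlap either group (DT minus PBS 1.68, SE 0.24, adjusted p = 7.32e-05, G-CSF minus PBS 1.28, adjusted p = 0.000958). In G32 it was at 6.36, 7.10 and 6.85 in cMoPs, 4.38, 4.35 and 4.77 in Ly6Cneg monocytes, 5.77 on the DT array and 5.10 on the PBS array. It was higher in cMoPs than in Ly6Cneg monocytes (2.27, SE 0.24, adjusted p = 1.5e-06), and against the single DT array the 1.99-fold difference did not pass (adjusted p = 0.0548). H2bc21 was therefore high in cMoPs, like other members, and low in the PBS arrays of JS, unlike them. Its annotated gene spans 2667 bp, where 23 of the members span 384 to 794 bp, and its human counterpart is known to make polyadenylated transcripts as well.

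H2bc21 lies head to head with H2ac20, a core H2A gene. The printed window of H2ac20 holds the annotated start of H2bc21, 192 bases away, and its octamer reads on the strand of H2bc21. H2ac20, named after its values were seen, was at 8.19, 8.16 and 7.74 on the PBS arrays of JS and at 6.72, 7.41 and 6.59 on the DT arrays (log2 difference -1.13, SE 0.25, adjusted p = 0.00362). In cMoPs H2ac20 was at 9.88, 9.75 and 9.69. The 2 neighbours moved in opposite directions between DT and PBS and were both high in cMoPs. A further pair, H2bc12 and H2ac12, has starts 178 bases apart. H2bc12 ranged from 3.56 to 10.04 over the arrays, whereas the probe set of H2ac12 stayed between 2.63 and 3.51. H2ac12 was among the dimmest of all genes (percentile 1.27 of the mean level), where an absent and a faint transcript cannot be told apart.

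**Figure D4:**
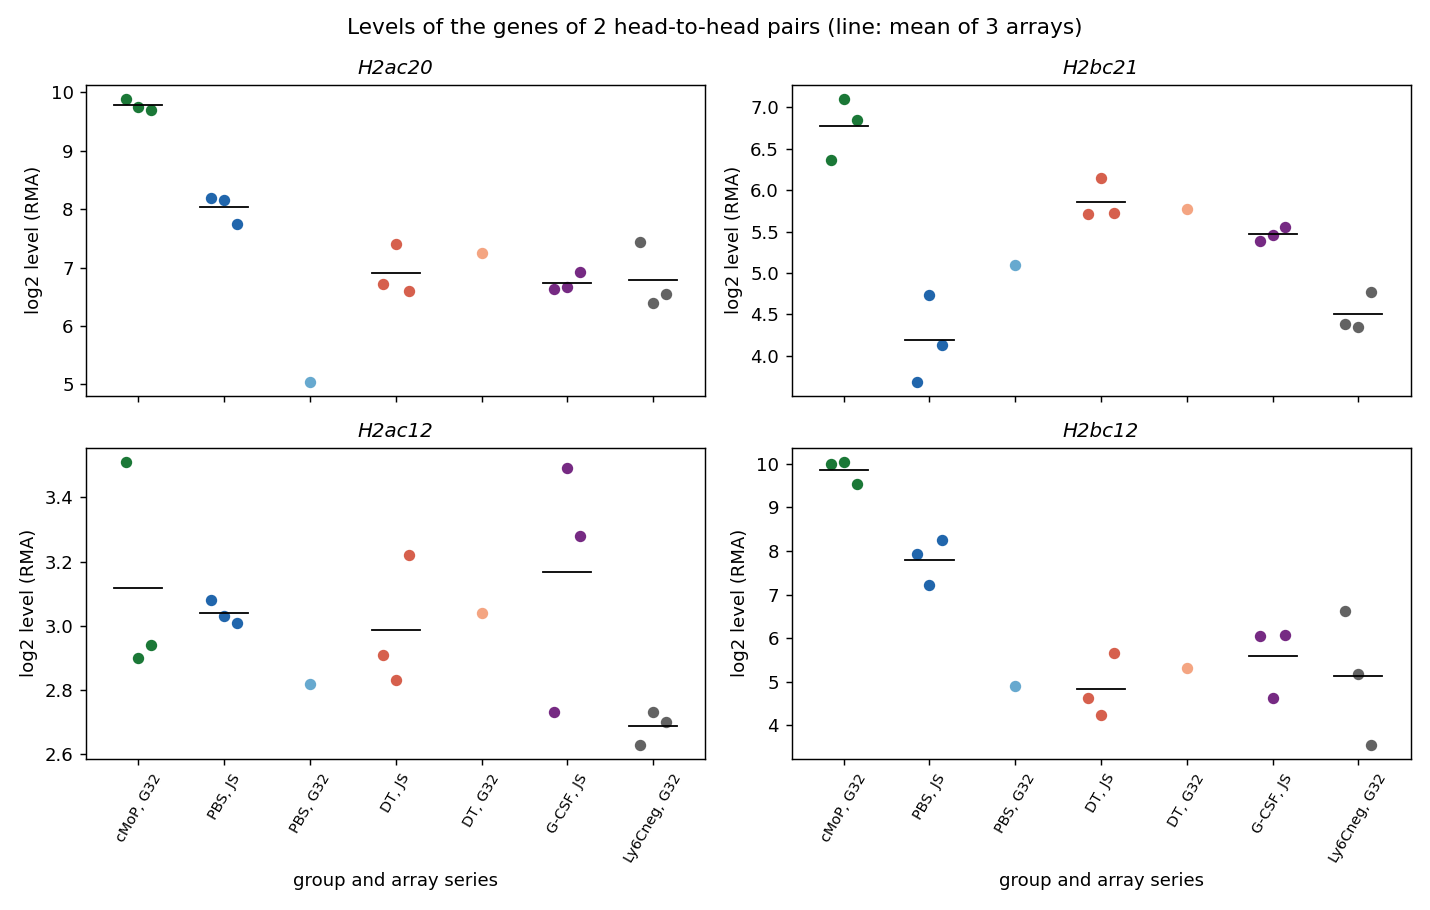
Log2 level of H2ac20, H2bc21, H2ac12 and H2bc12 on every array (points), by group and array series, with a line at the mean of 3 arrays. The vertical axes differ, and that of H2ac12 spans less than 1 log2 unit. H2ac20 is higher and H2bc21 lower on the PBS than on the DT arrays of JS, and both are high in cMoPs.

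Probe sets shared by several histone genes gave 34 distinct sets of values and cover H3. Fitted with all 25341 annotated probe sets, 14 of 34 were lower and 0 higher in DT than in PBS of JS (all probe sets 10.2% and 9.04%), namely 5 of 9 H2A, 5 of 7 H2B, 3 of 12 H3 and 1 of 5 H4 sets. A set named for 8 H3c genes, from H3c2 to H3c15, was at 8.51, 8.91 and 8.49 on the PBS arrays and at 7.13, 7.24 and 7.19 on the DT arrays. The groups were clearly apart (log2 difference -1.44, SE 0.17, adjusted p = 1.63e-05), and cMoPs, at 9.45, 9.29 and 9.07, were above the other G32 arrays. In cMoPs, 27 of 34 sets were higher than in Ly6Cneg monocytes and 0 lower (all probe sets 19.5% and 13.4%), with 9 of 9 H2A and 8 of 12 H3 sets. Against the DT array of G32, 26 sets were higher in cMoPs and 0 lower (9.11% and 7.73%), and 1 was higher in Ly6Cneg monocytes (2.12%, and 5.42% lower). G-CSF arrays had 15 sets lower and 1 higher than PBS (9.99% and 8.87%). G-CSF and DT differed in 0 of 34 sets (0.0316% of all probe sets higher and 0.0513% lower). A shared set cannot say which of its genes gave the signal.

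Genes that serve histone mRNAs and histone proteins were taken from lists. Of 23 genes of histone transcription and mRNA processing, 9 were lower in DT than in PBS of JS and 0 higher. Their median difference was -0.24, and 10.0% of all genes were lower and 9.46% higher. Slbp, which binds the stem-loop of histone mRNAs, differed by -0.65 (SE 0.17, adjusted p = 0.0123), and Npat, the coactivator of histone genes in S phase, by -0.71 (SE 0.20, adjusted p = 0.0203). Casp8ap2 gave -0.24 (SE 0.18, adjusted p = 0.453). The largest differences were those of the cap-binding subunit Ncbp1 (-1.04), Cstf2 (-0.93) and Nelfe (-0.83). In cMoPs 17 of these 23 genes were higher than in Ly6Cneg monocytes (all genes 19.4%), Slbp by 1.60 (SE 0.17, adjusted p = 1.71e-06).

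Of 22 histone chaperones and assembly factors, 13 were lower in DT and 1 higher (all genes 10.0% and 9.46%). Chaf1a, the large subunit of the assembly factor CAF-1, differed by -2.24 (SE 0.24, adjusted p = 3.84e-06), Mms22l by -1.80 and the H3-H4 chaperone Nasp by -1.68. The higher gene was Daxx, which deposits the variant H3.3 outside S phase (1.34, SE 0.24, adjusted p = 0.000725). It was named after its values were seen. In G-CSF against the same PBS arrays, 14 chaperones were lower and 1 higher, as were 7 and 0 of the processing genes. Of all genes, 9.80% were lower and 9.13% higher in that comparison. Of 10 histones listed as replication-independent, 3 were lower in DT and 0 higher (all genes 10.0% and 9.46%). H2ax, the variant marked at DNA breaks, had a mean of 8.81 in DT and 10.81 in PBS (SE of the difference 0.25, adjusted p = 2.02e-05). The other lower genes, H1f10 (-0.66) and Macroh2a1 (-0.51), moved less, and the variant H2az1 gave -0.01 (SE 0.13). Whether H2ax levels were independent of S phase was not tested.

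The histone members moved with S-phase genes over the arrays. Of 32 S-phase genes, 29 were lower in DT than in PBS of JS and 0 higher (all genes 10.0% and 9.46%). The largest falls were those of Uhrf1 (-3.14), the helicase subunits Mcm6 (-2.94) and Mcm7 (-2.83) and Rrm2 (-2.78). In G-CSF 30 of the 32 were lower (all genes 9.80%). All 32 were higher in cMoPs than in Ly6Cneg monocytes (all genes 19.4%). With each gene centred over the arrays, the median of the histone members was 0.99 to 1.20 on the cMoP arrays and 0.27 to 0.48 on the PBS arrays of JS. It lay between -0.54 and -0.09 on every other array. The S-phase median was 1.92 to 2.12, 0.96 to 1.13 and -1.11 to -0.47 on the same sets of arrays. The neutrophil and T cell markers that were high on the PBS arrays of JS were low in cMoPs. Their means there were 6.58 to 6.99 and 4.90 to 5.10. The stem and progenitor markers were as high on those PBS arrays as in cMoPs. The part of any of these markers in the histone levels was not tested. In bulk RNA, fewer cycling cells and less histone mRNA per cell cannot be told apart.

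**Figure D5:**
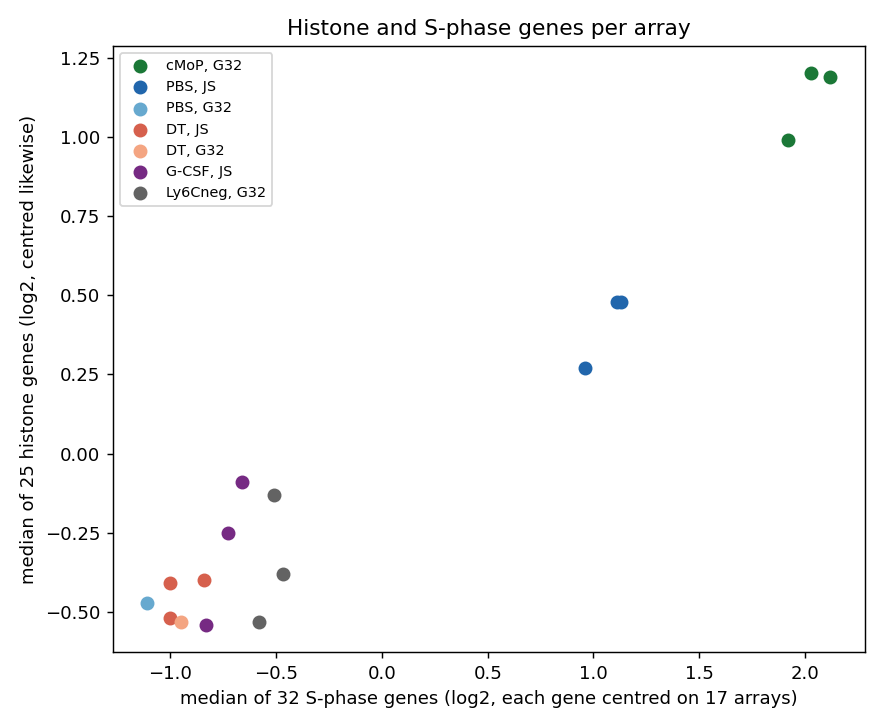
Median centred log2 level of 25 histone genes (vertical) against that of 32 S-phase genes (horizontal) on each of 17 arrays, coloured by group and array series. The cMoP arrays lie at the upper right, the 3 PBS arrays of JS between, and the PBS array of G32 lies at the lower left with DT, G-CSF and Ly6Cneg arrays.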

How the data were processed

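RNA of sorted mouse cells had been labelled and hybridized to Affymetrix arrays, and the deposited log2 values of 17 arrays were made by the authors with oligo's RMA (background correction, quantile normalization and a log2 summary per probe set) and were used as deposited. Its version and the genome build of the arrays are not given in the sources used here. Array medians lay between 5.31 and 5.53. Array number limits the precision, and no detection call was used. The labels describe biotinylated cRNA by a standard Affymetrix protocol. How reverse transcription was primed, which bears on mRNAs without a poly(A) tail, is not given in the sources used here.

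Of 41345 probe sets, 25341 are in the array annotation, 23521 with 1 symbol. The probe set with the highest mean was kept for each of 22180 genes, all 25 members were matched in the RefSeq gene table, and no filter was set. R 4.3.3 with limma 3.58.1 fitted 7 means, 1 for each group and array series, to all 17 arrays (10 residual degrees of freedom). Contrasts were taken within a series, p-values of all genes were adjusted together (Benjamini-Hochberg), and 0.05 was the threshold. The script was tested on simulated data. The members and lists were chosen with earlier results of these data known. Members named in the text are, per class, the 3 with the largest DT minus PBS difference and the brightest, the 4 with the largest cMoP minus Ly6Cneg and G-CSF minus DT differences, and those called against the majority. From lists they are the 4 with the largest DT minus PBS difference, with Slbp, Npat and Casp8ap2. Other names were chosen after their values were seen. A fit to all annotated probe sets was used for shared probe sets, and it, the cMoP against PBS excess and the comparison of DT arrays between series were added after the data were seen.

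Alternatives were an additive series term with and without the PBS array of G32, no series term, arrays of the same series only, a replicate block, leaving out genes with a mean level under the 30th percentile (15526 genes left), the probe set of largest interquartile range, the mean of probe sets, quantile normalization, median centring, array weights, trended and robust eBayes, and leaving out each array. Figures were drawn with matplotlib 3.10.9.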

Additional observations from a re-analysis of the deposited data

Results flagged for a closer look

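Within labelled groups of 4 arrays, Dixon's test at a critical value of 0.829 singled out 9 of 28 groups for the named members. The usual chance rate of about 1 in 20 cannot be applied here. Most of these members were chosen by their DT minus PBS difference on JS arrays, and the groups share arrays and mix both series. In 6 of the 9 groups the array was PBS G32_1, which lay below the 3 PBS arrays of JS. The gap to the nearest array, as a share of the range of the group, was 0.953 for H1f5, 0.947 for H2bc18, 0.936 for H1f2, 0.881 for H2ac21, 0.881 for H4c12 and 0.835 for H2ac15. In the DT group, H1f1 stood out on JS_3 (0.830), and on JS_2 H2bc21 (0.858) and H4c12 (0.835) did.

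The DT minus PBS difference was not the same in the JS and G32 series for 7 of the named members. By limma the log2 difference between the series (JS minus G32) was -3.86 for H1f5 and for H2ac21, -3.09 for H4c9, -2.95 for H1f1, -2.27 for H1f2, -2.14 for H2bc18 and -1.94 for H2ac10. Each rests on 1 DT and 1 PBS array in G32, and on these the members did not show the PBS pattern of JS.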

How the results depend on the processing

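Of the 25 histone genes, 13 were lower in DT than in PBS. The count was 9 with an additive series term and 4 with no series term. With the additive term but without PBS G32_1 it was 13. Only DT then lies in both series, so that this setting repeats the main fit and is no separate check. For G-CSF against PBS the count was 13, then 6 with the additive term and 3 with no series term. Both models pool PBS G32_1 with the PBS arrays of JS. Without that array the additive term gave 13 for G-CSF as well, which again repeats the main fit. For Ly6Cneg against DT, the higher count was 0 and became 1 with the additive term, with no series term and with array weights, and the lower count fell from 1 to 0 with arrays of the same series only. Leaving out each array gave 11 to 13 lower and 1 higher for DT against PBS, 10 to 13 lower and 1 higher for G-CSF against PBS, 0 for G-CSF against DT, 15 to 18 higher for cMoP against Ly6Cneg, 14 to 19 higher for cMoP against DT, and 0 to 1 in either direction for Ly6Cneg against DT. The additive term lost the calls of H1f2 (-0.40, adjusted p = 0.573), H4c12 (-0.43, adjusted p = 0.131) and H4c9 (-0.86, adjusted p = 0.25). Under quantile normalization H2bc3, not called between cMoP and Ly6Cneg, turned to -0.00 (adjusted p = 0.994). H4c1 lost that call in 7 settings. Array numbers of JS did not pair the samples (correlation of deviations 0.000123 to 0.0895), and a replicate block gave 13 lower and 1 higher for DT against PBS.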
